A study of Drosophila melanogaster with 6 samples.

Results

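Described here are 6 genes of the corneal lens and of the cone cells beneath it: the lens protein genes retinin, Crys, Cpr72Ec and Cpr66D, and the transcription factor genes sv and ct. They were taken by FlyBase identifier from a list of known lens and cone cell genes, 6 of the 17509 genes in the count files, and all 6 had enough reads to be tested. RNA was sequenced from whole heads of 4-day-old female wild-type Canton S flies, raised at 25 °C and 50% relative humidity on minimal food. One group had no beta-carotene in that food (vitamin A deprived, 3 libraries) and the other had it added (vitamin A replete, 3 libraries), so the groups share strain, sex, age and base diet. The comparison asks whether these lens and cone cell transcripts differ when the diet lacks the source of vitamin A.

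Each facet of the fly eye is covered by a clear lens of chitin and protein. Cone cells and primary pigment cells secrete it in the pupa, and the cone cells stay in place below the lens in the adult, where they also support the photoreceptors. Retinin and drosocrystallin, the product of Crys, are major lens proteins, and retinin together with wax forms the anti-reflective coat on the lens surface. Cpr66D and Cpr72Ec belong to the Cpr family of cuticle proteins, which are named for a chitin-binding domain. The sv gene encodes the fly Pax2 protein and ct a homeodomain protein. Both factors act in cone cells and also in bristles and other sense organs, so in a whole head their transcripts do not come from the eye alone.

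No member passed the test, and for none of them were the deprived and replete libraries separate. All 4 lens protein genes had a lower mean in deprived heads. The difference was widest in Cpr66D (1.82-fold) and Cpr72Ec (1.70-fold), followed by Crys (1.21-fold) and retinin (1.19-fold). Of the cone cell factors, sv was 1.08-fold lower in deprived heads and ct had means of 379.7 and 365 CPM. The lower means of Cpr72Ec and Cpr66D came from 2 of the 3 replete libraries, because replete library 1 lay inside the deprived range for both genes.

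Levels are CPM, a gene's count scaled by the library size, here with edgeR's TMM scaling. Deprived and replete heads were compared with edgeR's quasi-likelihood test over all 10896 tested genes, and a call needed a Benjamini-Hochberg (BH) adjusted p under 0.05. Of the 6 members 0 were called higher and 0 lower, where 0.294% of all tested genes were called higher and 0.0367% lower. At an unadjusted p below 0.05 edgeR also found 0 members higher and 0 lower, where the shares of all tested genes were 2.72% and 2.41%. DESeq2 and limma-voom called 0 members as well, and each had 1, Cpr72Ec, at an unadjusted p below 0.05. The groups of 10.9% of all tested genes did not overlap, against 0 of 6 members. The 4 lens protein genes had a median log2 fold change (deprived over replete) of -0.52 and the 2 factors one of -0.02, beside -0.01 over all tested genes. In whole heads, fewer cells of a type and less RNA per cell cannot be told apart.

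Total counts were 21344395 to 24165187 in the deprived and 15668307 to 17935321 in the replete libraries, so every deprived library was the deeper. A count of 3 corresponded to 0.125 to 0.186 CPM, a floor for counting error alone. Nothing in the labels states that each library had its own flies, and the spread behind the p-values may thus be technical. In each library 63.7% to 69.8% of the gene counts from 1 to 20 were even numbers, and genes with a count of 2 outnumbered those with a count of 1, so reads may not be independent of each other and counting intervals may be too narrow. Photoreceptor genes summed to 24182 to 27643 CPM in the deprived and 25975 to 27145 CPM in the replete libraries. Ovary and eggshell genes, marks of abdominal tissue, summed to 29.1 to 70.2 CPM in the deprived libraries and to 109, 136 and 11.4 CPM in replete libraries 1, 2 and 3. Gut enzyme genes reached 12.6 CPM in replete library 2 and 0.186 to 1.09 CPM in the others, with 4 of the 19 at 0 everywhere.

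**Figure D1:**
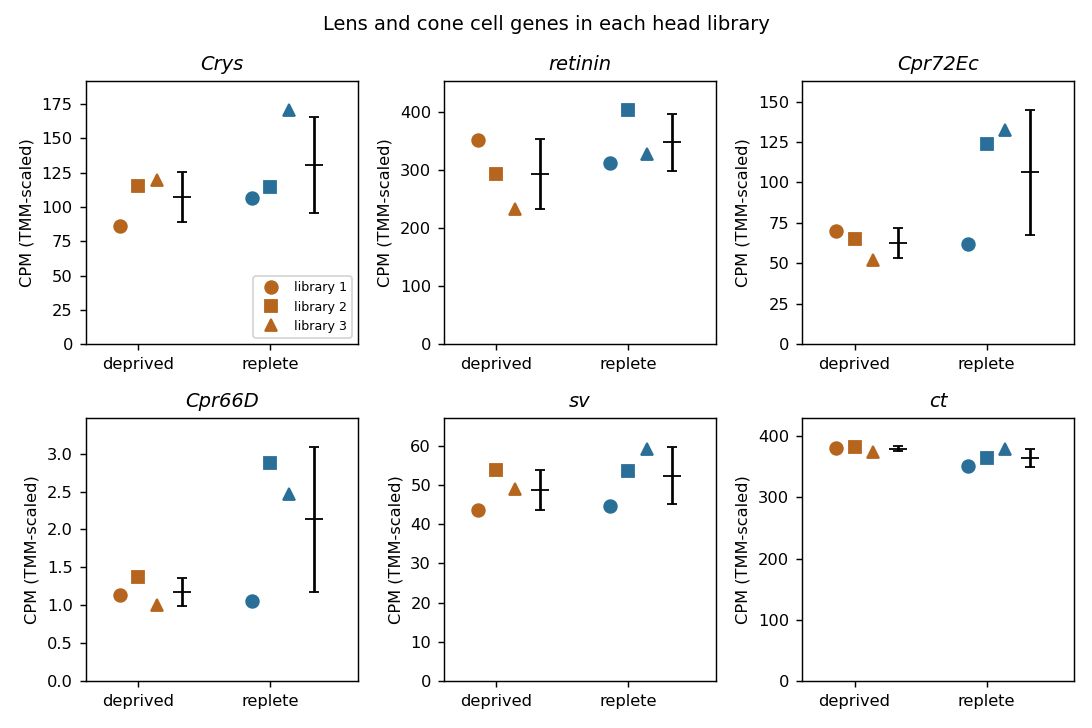
TMM-scaled CPM of each gene in each library, deprived in brown and replete in blue, with circles, squares and triangles for libraries 1, 2 and 3 and black bars for the mean ± SD (n = 3). Replete library 1 sits with the deprived libraries for Cpr72Ec (62.0 CPM) and Cpr66D (1.05 CPM), while replete libraries 2 and 3 lie above all of them.

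Compared per length of exon, retinin was by far the most abundant member. It had a mean of 402 CPM per kb over the 6 libraries and ranked 112 among the 10821 tested genes with an annotated length. Cpr72Ec followed at 58.2 and Crys at 52.5 CPM per kb, then ct at 29.9, sv at 9.70 and Cpr66D at 1.50 CPM per kb. Cpr72Ec (35.9 to 91.5 CPM per kb) and Crys (38.2 to 75.3 CPM per kb) overlapped, and their order changed between libraries of each group. Crys was the higher by mean in deprived heads, at 47.4 ± 8.02 against 43.1 ± 6.43 CPM per kb (SD, n = 3). Cpr72Ec was the higher by mean in replete heads, at 73.4 ± 26.6 against 57.6 ± 15.5 CPM per kb (SD, n = 3). Library 1 of each group had the reverse order. In deprived library 1 Cpr72Ec was at 48.4 and Crys at 38.2 CPM per kb, and in replete library 1 they were at 42.9 and 47.0. All other neighbours in the order over the 6 libraries were separate in every library, from retinin at 292 CPM per kb or more down to Cpr66D at 2.61 CPM per kb or less. Cpr66D, a known protein of the adult lens, thus ranked 9128 of 10821 in these adult heads.

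**Figure D2:**
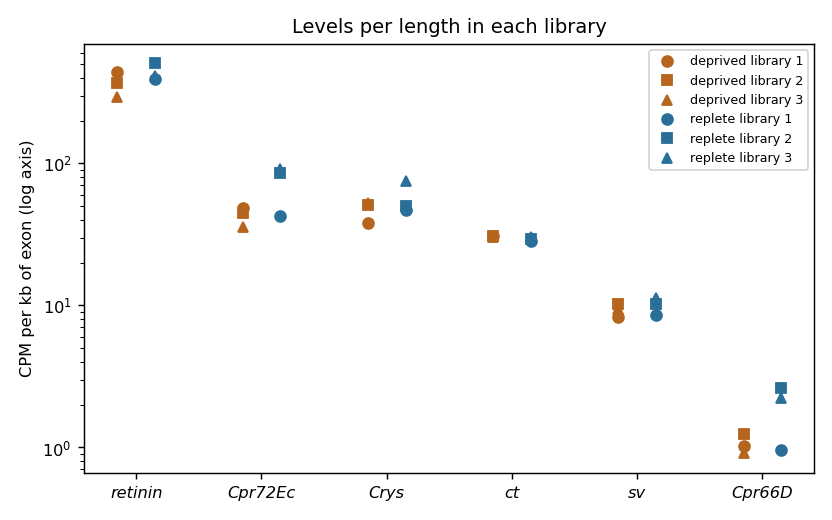
CPM per kb of exon on a log axis for each gene in each library, ordered by the mean over the 6 libraries, deprived in brown on the left and replete in blue on the right of each gene. Retinin stands at 292 to 505 CPM per kb above all other members, Cpr72Ec and Crys overlap, and Cpr66D is lowest at 0.908 to 2.61 CPM per kb.

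Retinin (FBgn0040074) lies on chromosome 3L at 16331933 to 16332789, plus strand, in the BDGP6.54 annotation, and encodes 191 amino acids. Its level was 353, 294 and 233 CPM in deprived libraries 1, 2 and 3 and 312, 403 and 329 CPM in replete libraries 1, 2 and 3. The groups overlapped: deprived library 1 was second only to replete library 2, and deprived libraries 2 and 3 were below all replete ones. Means were 293 ± 59.8 against 348 ± 48.7 CPM (SD, n = 3), a log2 fold change of -0.25 ± 0.15 (SE; edgeR quasi-likelihood, BH-adjusted p = 0.999). The 95% interval of the fold, deprived over replete, was 0.664 to 1.07.

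Crys (FBgn0005664), on chromosome 2L at 11944129 to 11947131, plus strand, encodes 477 amino acids and overlaps no other annotated gene. It stood at 86.4, 115.3 and 119.9 CPM in the deprived libraries and at 106, 114 and 170.3 CPM in replete libraries 1, 2 and 3. Replete libraries 1 and 2 fell within the deprived range and only replete library 3 was above it. Means were 107 ± 18.1 against 130.2 ± 35.0 CPM (SD, n = 3), a log2 fold change of -0.28 ± 0.21 (SE; edgeR quasi-likelihood, BH-adjusted p = 0.999), with a 95% interval of 0.588 to 1.15 for the fold. Without replete library 3 the log2 fold change of Crys was -0.04 and without deprived library 1 it was -0.15. The balance between these major lens proteins varied within each diet. The counts of Crys per 100 counts of retinin were 24.5, 39.2 and 51.4 in the deprived and 34.1, 28.3 and 51.8 in the replete libraries.

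Cpr72Ec (FBgn0036619) is a gene of 1 exon on the minus strand of chromosome 3L, at 16365894 to 16367340. Its level was 70.0, 64.9 and 52.0 CPM in the deprived group and 62.0, 123.99 and 132 CPM in replete libraries 1, 2 and 3. Replete libraries 2 and 3 were above the mean log2 CPM of the deprived libraries by 1.00 and 1.10, and replete library 1 by 0.00451. Means were 62.3 ± 9.30 against 106 ± 38.4 CPM (SD, n = 3), with a log2 fold change of -0.77 ± 0.31 (SE; edgeR quasi-likelihood, BH-adjusted p = 0.976) and a 95% interval of 0.341 to 1.01 for the fold.

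Cpr66D (FBgn0052029), on chromosome 3L at 8640439 to 8643584, plus strand, showed the same arrangement at a far lower level. It had 26, 30 and 24 counts in the deprived libraries and 17, 51 and 40 counts in replete libraries 1, 2 and 3, which are 1.14, 1.37 and 1.00 CPM against 1.05, 2.88 and 2.46 CPM. Exact Poisson 95% intervals, which cover counting error only, were 0.614 to 1.69 CPM in replete library 1, 2.14 to 3.79 CPM in replete library 2 and 1.76 to 3.35 CPM in replete library 3. Among the deprived libraries the interval of library 2, 0.925 to 1.96 CPM, overlapped that of replete library 3. Those of deprived libraries 1 and 3 ended below it, at 1.67 and 1.49 CPM. The interval of replete library 1 ended just below that of replete library 3, and wider intervals, as for reads that are not independent, could overlap. Means were 1.17 ± 0.186 against 2.13 ± 0.956 CPM (SD, n = 3), a log2 fold change of -0.87 ± 0.48 (SE; edgeR quasi-likelihood, BH-adjusted p = 0.997) and a 95% interval of 0.264 to 1.14 for the fold.

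The ratio of the Cpr genes to each other varied less over the 6 libraries than that of Cpr72Ec to retinin, although within the deprived libraries it varied more. Counts of Cpr66D per 100 counts of Cpr72Ec were 1.62, 2.11 and 1.93 in the deprived and 1.70, 2.32 and 1.86 in the replete libraries, with no gap between groups. Counts of Cpr72Ec per 100 counts of retinin were 19.9, 22.1 and 22.3 in deprived heads and 19.9, 30.8 and 40.3 in replete libraries 1, 2 and 3. In replete libraries 2 and 3 Cpr72Ec was thus higher relative to retinin, while replete library 1 had the ratio of the deprived libraries.

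The sv gene (FBgn0005561), on chromosome 4 at 1088798 to 1113317, plus strand, was at 43.5, 53.7 and 48.9 CPM in the deprived and 44.6, 53.5 and 59.1 CPM in the replete libraries. The ranges largely coincided, and only replete library 3 lay above the deprived ones. Means were 48.7 ± 5.11 against 52.4 ± 7.30 CPM (SD, n = 3). The log2 fold change was -0.10 ± 0.13 (SE; edgeR quasi-likelihood, BH-adjusted p = 0.999), with a 95% interval of 0.765 to 1.13 for the fold. Cals, a calsyntenin gene on the opposite strand, shares 444 of the 5213 exonic bases of sv and was at 325 to 426 CPM. The strand setting of the counting is not given in the sources used here, and reads of this stretch cannot be assigned with certainty.

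The ct gene (FBgn0004198), on chromosome X at 7608428 to 7678859, plus strand, was the steadiest member. It stood at 382, 383 and 375 CPM in the deprived and 351, 364 and 380.0 CPM in the replete libraries. Replete libraries 1 and 2 were below the deprived range and replete library 3 was within it. Means were 379.7 ± 4.25 against 365 ± 14.5 CPM (SD, n = 3). The log2 fold change was 0.06 ± 0.08 (SE; edgeR quasi-likelihood, BH-adjusted p = 0.999), and the 95% interval of the fold ran from 0.920 to 1.18, the narrowest of the 6.

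Spread between replete libraries set the members apart from each other. The highest replete library exceeded the lowest 2.73-fold for Cpr66D and 2.14-fold for Cpr72Ec, against a median of 1.37-fold over all tested genes. A larger ratio was found in 11.97% of tested genes for Cpr66D and in 18.8% for Cpr72Ec. These shares are over genes of every level, and the part of counting error in the ratio of Cpr66D was not tested. For Crys the ratio was 1.604, for sv 1.32 and for retinin 1.29. For ct it was 1.08, and 92.9% of tested genes had a larger one. Among the deprived libraries the ratio was 1.51 for retinin, the widest of the 6, and 1.02 for ct, which was exceeded by 99.1% of tested genes. Cpr72Ec and Cpr66D were at 1.35 and 1.37 in deprived heads, beside a median of 1.25 over all tested genes. Their widest spread was thus seen in replete heads.

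Leaving out single libraries showed what each contributed. Without replete library 1, Cpr72Ec was called lower in deprived heads, with a log2 fold change of -1.04 ± 0.13 (SE; edgeR quasi-likelihood, BH-adjusted p = 0.0106, within 0.0106 to 1.00 over all 16 alternatives). It was the 1 member of 6 called in that fit, which called 5 of 11264 tested genes (0.0444%) lower, and Cpr66D, at -1.19 ± 0.45 (SE), was not (edgeR quasi-likelihood, BH-adjusted p = 0.647). The same fit also called 1 of 7 clock genes lower. It kept replete libraries 2 and 3, whose clock genes differed from those of the other libraries, as described below. Without replete library 2 the log2 fold change of Cpr72Ec was -0.64 and that of Cpr66D -0.59, and without replete library 3 they were -0.58 and -0.75. Retinin moved most with other libraries: its log2 fold change was -0.13 without replete library 2, -0.11 without deprived library 3 and -0.40 without deprived library 1. The lens protein median was -0.72 without replete library 1 and -0.43 without replete library 3. For ct the values ran from 0.03 to 0.09 and for sv from -0.21 to -0.01, with no change of sign.

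**Figure D3:**
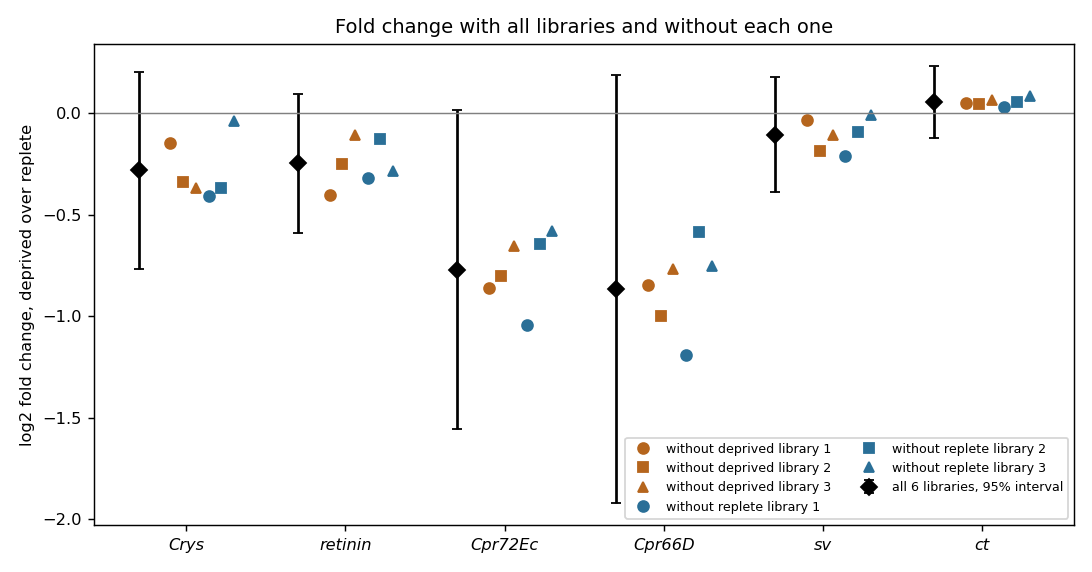
Log2 fold change of each gene, deprived over replete, with all 6 libraries (black diamonds with 95% intervals, edgeR) and without each library in turn (brown for a deprived and blue for a replete library left out, circles, squares and triangles for libraries 1, 2 and 3). Cpr72Ec ran from -1.04 without replete library 1 to -0.58 without replete library 3, while ct stayed between 0.03 and 0.09.

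The position of each replete library relative to the range of the 3 deprived ones summarised this. Replete library 1 within that range and replete libraries 2 and 3 above it was the arrangement of Cpr72Ec and Cpr66D, and of 454 tested genes (4.17%) in all. Crys and sv had only replete library 3 above the range, as did 598 genes (5.49%), and retinin had only replete library 2 above it, as did 663 genes (6.08%). Every replete library above the deprived range was found in 547 genes (5.02%) and in no member. No single replete library therefore carried the lower deprived means of all 4 lens protein genes.

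Clock genes varied among the same libraries. The mean log2 CPM of tim, vri and per, whose transcripts cycle against those of Clk and cry, minus that of Clk and cry and centred over the libraries, was 0.46, 0.60 and 1.16 in the deprived libraries. It was 0.61 in replete library 1, -0.63 in replete library 2 and -2.20 in replete library 3. Replete library 1 was thus within the deprived range on this measure too, and the time of day of collection is not given in the sources used here. With this difference as a covariate the log2 fold changes were -0.15 ± 0.20 for Cpr72Ec, -0.25 ± 0.66 for Cpr66D and -0.15 ± 0.21 for retinin (SE). For Crys the covariate turned the sign to 0.05 ± 0.21 and for sv to 0.09 ± 0.16 (SE). The clock difference partly moved with diet, so in these libraries the share of each cannot be told apart. Of the 7 clock genes tested, 0 were called in edgeR, DESeq2 or limma-voom with all 6 libraries. In edgeR 1 was higher and 2 lower at an unadjusted p below 0.05, beside 2.72% and 2.41% of all tested genes. Without replete library 1, the fit that called Cpr72Ec, 1 of the 7 was called lower and 0 higher. The share of diet and of the clock difference in that call of Cpr72Ec cannot be told apart either.

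**Figure D4:**
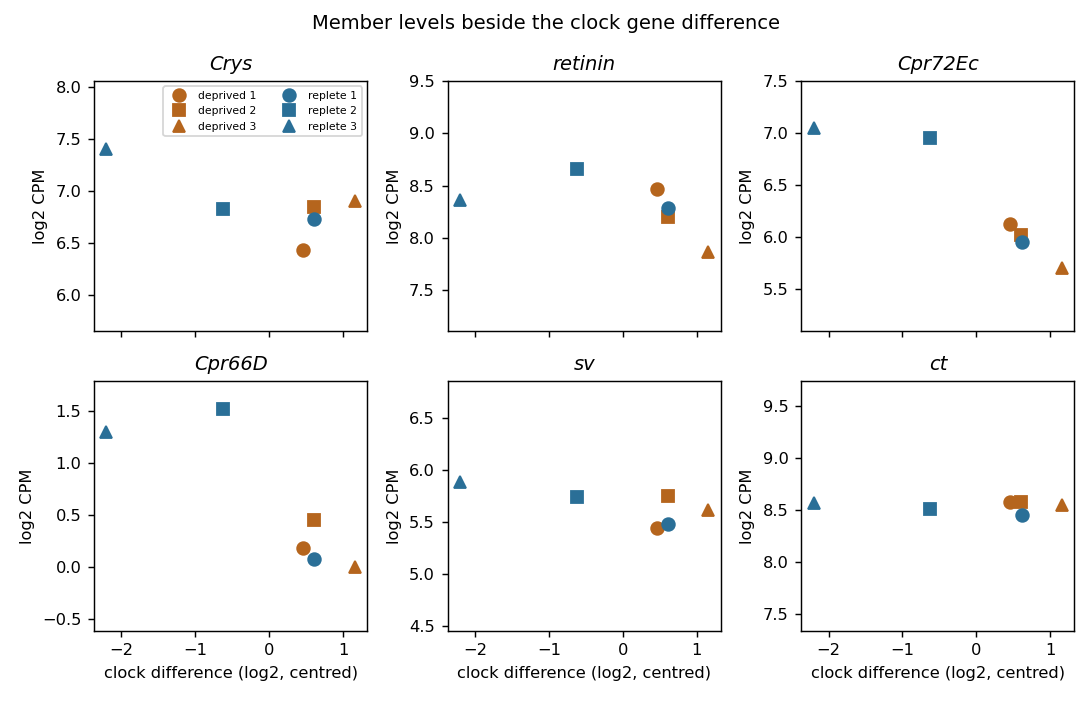
Log2 CPM of each gene against the centred clock gene difference (mean log2 CPM of tim, vri and per minus that of Clk and cry) in each library, deprived in brown and replete in blue, each panel spanning the same number of log2 units. Replete libraries 2 and 3, at -0.63 and -2.20 on the clock axis, hold the highest values of Cpr72Ec and Cpr66D, and replete library 1, at 0.61, lies among the deprived libraries.

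Marks of abdominal tissue and muscle also differed between the replete libraries. Cpr72Ec was at 123.99 CPM in replete library 2 and 132 CPM in replete library 3, where ovary and eggshell genes summed to 136 and 11.4 CPM. The eggshell gene Cp36 was at 7.34 CPM in replete library 2 and at 0 in the other 5 libraries. Muscle genes summed to 12891 CPM in replete library 3 and to 7346 to 10291 CPM in the others. Crys was also highest in replete library 3. The part of abdominal tissue and muscle in the members' levels was not tested.

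The place of retinin and Cpr72Ec in the genome was shared. They lie 33104 bases apart on chromosome 3L with 13 genes between them, 6 of which were tested. The most abundant of these was Pdh, which encodes photoreceptor dehydrogenase, at 162, 129.9 and 80.8 CPM in the deprived and 167, 297 and 224 CPM in the replete libraries. Pdh too was higher in replete libraries 2 and 3 than in any other library, with a log2 fold change of -0.88 ± 0.34 (SE; edgeR quasi-likelihood, BH-adjusted p = 0.968). The Cpr genes next to Cpr72Ec were almost silent, with Cpr72Ea at 0 to 1.17 CPM and Cpr72Eb at 0.0437 to 0.640 CPM. CG4842, on the other side of Cpr72Ec, was at 9.71, 6.58 and 8.52 CPM in the deprived and 10.8, 19.0 and 12.4 CPM in the replete libraries (edgeR quasi-likelihood, BH-adjusted p = 0.518). Its groups did not overlap, as for 10.9% of all tested genes. It was the 1 of 6 tested genes next to or overlapping a member with separate groups. The remaining tested genes of the interval did not share the pattern: Golgin104 was at 15.6 to 17.2 against 16.9 to 19.7 CPM and Tcs3 at 3.46 to 4.01 against 1.58 to 3.26 CPM.

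No other gene for chitin, tanning or apical matrix was called, and 18 of the 22 tested had a negative log2 fold change, where 52.0% of all tested genes did. Of 25 listed genes 22 were tested and 0 were called in edgeR, DESeq2 or limma-voom. In edgeR 5 were lower and 0 higher at an unadjusted p below 0.05, beside 2.41% and 2.72% of all tested genes, and the median log2 fold change was -0.20. With the clock covariate 2 were lower and 1 higher at that threshold, 15 of 22 had a negative log2 fold change and the median was -0.04. Such a shift was not particular to this list. Of 15 tested muscle genes 14 had a negative log2 fold change. Their median was -0.21, and -0.01 with the clock covariate. In edgeR 3 of these muscle genes were lower and 0 higher at an unadjusted p below 0.05. Neuron genes went the other way, with 0 of 11 negative. The zona pellucida domain gene qsm was at 24.4 ± 6.43 against 36.4 ± 4.03 CPM, and serp, a chitin deacetylase gene, at 26.2 ± 4.15 against 34.3 ± 2.84 CPM (SD, n = 3). Another gene of the zona pellucida class, dy, was at 0.838 ± 0.202 against 2.30 ± 1.22 CPM. The tyrosine hydroxylase gene ple, which serves tanning as well as dopamine neurons, was at 125.1, 128 and 86.1 CPM in the deprived and 137, 201 and 278 CPM in the replete libraries. Its replete libraries 2 and 3 were the highest, as for Cpr72Ec.

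No other tested gene with a symbol starting with Cpr was called. Cuticle protein genes under other symbols were not part of this list. Of 68 further Cpr genes in the files 18 were at 0 in every library and 27 were tested, and 0 of these were called in edgeR, DESeq2 or limma-voom. In edgeR 2 were lower and 0 higher at an unadjusted p below 0.05, beside 2.41% and 2.72% of all tested genes. Further, 19 of 27 had a negative log2 fold change, where 52.0% of all tested genes did, and their median was -0.24. With the clock covariate 18 of 27 had a negative log2 fold change and the median was -0.22. In that fit 0 were lower and 0 higher at an unadjusted p below 0.05. Cpr47Ef was at 15.8 ± 1.81 against 25.0 ± 4.44 CPM and Cpr73D at 19.7 ± 4.50 against 28.3 ± 5.97 CPM (SD, n = 3). Cpr11B went the other way, at 20.3 ± 2.40 against 16.1 ± 1.86 CPM. The summed level of these 68 genes was 426 to 513 CPM in deprived heads and 485, 663 and 536 CPM in replete libraries 1, 2 and 3.

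Like sv and ct, no other gene of cone cell fate or adhesion was called. Of 16 fate genes, all tested, 0 were called in edgeR, DESeq2 or limma-voom, 0 had an unadjusted p below 0.05 in edgeR, and the median log2 fold change was -0.00116. The most abundant, pros, which marks cone cells and R7 photoreceptors and is also used in the brain, was at 2553 ± 19.2 against 2295 ± 39.1 CPM (SD, n = 3). Delta, the Notch ligand that helps to specify cone cells, was at 26.1 ± 2.94 against 31.9 ± 2.73 CPM. Of 8 adhesion genes 7 were tested and 0 were called in any of these tools, again with 0 at an unadjusted p below 0.05 in edgeR. Among them, CadN, the N-cadherin of cone cells and neurons, was at 446 ± 12.8 against 407 ± 40.8 CPM. Mechanosensory genes, which mark sense organs that also use sv and ct, summed to 28.5 to 42.0 CPM in deprived and 24.4 to 40.6 CPM in replete heads. None of the 5 tested mechanosensory genes was called in these tools, and 0 had an unadjusted p below 0.05 in edgeR.

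Of 19 screening pigment genes, which mark pigment cells, 18 were tested and 0 were called in edgeR, DESeq2 or limma-voom, with 0 at an unadjusted p below 0.05 in edgeR. They summed to 1367 to 1558 CPM in deprived and 1424 to 1527 CPM in replete heads. Of the photoreceptor genes, 2 of 18 tested were called higher (Cpn and eys) and 2 lower (trpl and Arr2) in edgeR, beside 0.294% and 0.0367% of all tested genes. DESeq2 called 3 higher and 4 lower, and limma-voom 2 and 2. For trpl, replete library 1 was at 787 CPM beside 798 and 1112 CPM in replete libraries 2 and 3 and 388 to 409 CPM in the deprived ones. Because trpl was picked as a gene called in these same libraries, this place of replete library 1 follows from the choice. It does not bear on Cpr72Ec and Cpr66D.

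Genes with the most similar profile over the 6 libraries were sought among 9072 non-member genes that averaged 2 CPM or more, by Pearson's r of log2 CPM, given as a description of 6 points that share their library preparation. Closest to the mean of the 4 lens protein genes were lncRNA:CR45156 (r = 0.990), Cox10 (r = 0.987), CG14591 (r = 0.983), CG5273 (r = 0.979) and CG17726 (r = 0.978). All of these were highest in replete libraries 2 and 3, which follows from the selection, as the lens protein mean was highest there. CG5273, for instance, was at 345 to 362 CPM in deprived heads and 358, 417 and 444 CPM in the replete libraries. The 4 lens protein genes did not share 1 profile: their pairwise r ran from -0.14 (Crys and retinin) to 0.96 (Cpr72Ec and Cpr66D). Closest to sv were CG4619 (r = 0.996), CG5597 (r = 0.992) and CG13643 (r = 0.981), and closest to ct were Tsp42Ed (r = 0.981), rst (r = 0.975) and asun (r = 0.973). The rst gene encodes an adhesion protein that sorts pigment cells in the eye, and it was at 22.4, 22.8 and 21.1 CPM in the deprived and 17.1, 20.2 and 21.4 CPM in the replete libraries. Of the 9072 genes compared, 100 reached an r above 0.9 for the lens protein mean, 98 for sv and 50 for ct. How many unrelated profiles of 6 points would reach it was not tested.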

How the data were processed

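The submitters' processing notes name STAR 2.5.3a, Subread 1.6.2 with featureCounts, Trim Galore 0.4.2 and FastQC 0.11.5. Their settings, the genome build, the annotation, strand use and the treatment of multi-mapping reads were not given in the sources used here. The deposited files hold raw whole-number read counts per FlyBase gene, 1 file per library. Of 17509 identifiers, 17389 were matched to symbols and positions of Ensembl release 115 (BDGP6.54), from which exonic lengths were taken.

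Counts were filtered with filterByExpr (minimum count 10, minimum total 15), leaving 10896 genes, scaled by TMM and tested with edgeR 4.0.16 (robust quasi-likelihood, R 4.3.3) on diet alone, with BH adjustment over all tested genes. DESeq2 1.42.0, limma-voom (limma 3.58.1), other scalings and filters, a replicate block, a clock gene covariate and leaving out each library were alternatives. The fit was tested on simulated counts. Replicates differed by more than counting noise (chi-square per degree of freedom 19.2 to 46.5). The members and gene lists were chosen with earlier results of these data known. Named beyond the members were up to 4 genes per list with the smallest p, the members' neighbours and the genes of most similar profile. Genes named outside this rule (Cp36, Cpr72Ea, Golgin104, ringer) were chosen after their values were seen. Members' sequences were not used here.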

Additional observations from a re-analysis of the deposited data

How the results depend on the processing

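Over 16 alternatives the members' log2 fold changes kept their sign except with the clock covariate, where Crys was at 0.0528 and sv at 0.0918; that covariate also moved the lens protein median from -0.52 to -0.15. The count of members called lower was 0 to 1 in the fits without 1 library, and the 1 was Cpr72Ec without replete library 1 (-1.04; its range over such fits was -1.04 to -0.58). Over all genes, 32 higher and 4 lower calls became 60 and 25 in DESeq2, 12 higher with the clock covariate and 10 lower with no filter on low counts. Fits without 1 library gave 18 to 32 higher and 2 to 7 lower calls. Same-numbered deprived and replete libraries deviated together with r = -0.06, 0.02 and 0.18, and not every library correlated best with its own number, so the numbers were not taken as pairs. With the replicate block 24 genes were higher and 6 lower, 0 members were called, and the log2 fold change of Cpr72Ec was -0.71. Depth limits Cpr66D most, at 17 to 51 counts per library. The cause of these changes was not tested.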
